A study of Mus musculus with 2 samples.

Results

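Mitochondrial ribosomes translate the few respiratory chain proteins encoded by mitochondrial DNA. Their ribosomal RNAs come from that DNA, whereas all of their proteins are encoded in the nucleus, made in the cytosol and imported. The small subunit binds the messenger RNA and decodes it, and the large subunit forms the peptide bond and passes the new chain into the inner membrane. In the villus, the enterocytes that absorb and repackage nutrients depend on respiration for much of their energy.

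The genes described here are the 76 mitochondrial ribosomal protein genes of the deposited table whose symbol begins with Mrpl or Mrps followed by a digit, out of 20722 symbols. The large subunit was represented by 47 genes (Mrpl) and the small subunit by 29 (Mrps), each by its row with the highest mean, which mattered for Mrpl1 alone (77 rows in all). The RNA sequencing covered villi purified from mouse small intestine, with 1 library per genotype. The control was a C57BL/6 mouse with the genotype Rosa26-CreERT2 Cdkn2a-/-. The other library carried the same alleles on the same strain together with Ring1a-/- and Ring1bf/f, and is called dKO-labelled here, after the design text of the series. Ring1a (Ring1) and Ring1b (Rnf2) are the ubiquitin ligases of Polycomb repressive complex 1. Both genotypes lack Cdkn2a, both carry the tamoxifen-inducible Cre, which the Rosa26 locus expresses in most cell types, and both received 3 injections of tamoxifen and were killed 6 days later. The comparison asks which villus transcripts differ when both ligases are removed. Ages and the number of animals per library are not stated in the labels.

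With 1 library per genotype no difference has a replicate check, no test was made, and each statement compares these 2 libraries. Printed folds are ratios of sequenced reads, dKO-labelled over control, divided by the ratio of size factors that the deposited values imply (1.11). Their ranges in parentheses are 95% exact (Clopper-Pearson) intervals, which cover counting error only. On this scale the reads of all genes together had a ratio of 1.23 (1.226 to 1.233), so pooled folds stand against 1.23 rather than 1. The log2 ratios were computed from the deposited normalised counts after adding 1, and understate the change of low genes. A gene was measured at a mean normalised count of at least 20 and was called higher or lower at a 2-fold difference on that scale. A gene with a value under 20 in 1 library passed this limit only through the other library, which favours a call. Shares of all measured genes carry the same limit.

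The control library held 775827 reads and the dKO-labelled library 1058196. Ring1 had 10 reads in each library, and Rnf2 had 59 and 82, a ratio of 1.25 (0.886 to 1.78), so neither targeted gene was lower beyond counting error. Reads over a whole transcript do not show which exons were deleted. The 11 markers of the villus epithelium were all measured, with a median log2 ratio of 0.22. The 2 libraries also differed in sex-linked transcripts (Xist had 80 control reads and 1 dKO-labelled reads, and Ddx3y had 0 and 131), and 0 of the 76 mitoribosomal genes lie on the X chromosome. Sex and genotype label cannot be told apart here. In these bulk libraries, a change in the share of a cell type and a change of RNA per cell cannot be told apart either.

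As examples of the regulatory sequence of these genes, the promoters of 3 genes are shown from those among the 4 highest and 3 lowest log2 ratios with at least 100 bases before the first start, Mrps26 from the high end and Mrpl27 and Mrps18c from the low end. They are from RefSeq (GRCm38.p6), 5′ to 3′ on the strand of the gene, and end before the first annotated transcript start. Capitals mark the letters CCGGAAG on either strand, a core bound by ETS factors such as GABP, a regulator of nuclear genes for mitochondrial proteins. The Mrps26 match of these letters lies in the window searched below but outside the bases printed here, so its line has no capitals. Mrps26 lies at chr2:130563592-130563741 (+), Mrpl27 at chr11:94653617-94653766 (+) and Mrps18c at chr5:100798509-100798626 (+).
Mrps26: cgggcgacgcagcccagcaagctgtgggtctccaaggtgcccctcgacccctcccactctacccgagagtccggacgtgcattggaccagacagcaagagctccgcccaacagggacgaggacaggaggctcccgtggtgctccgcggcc
Mrpl27: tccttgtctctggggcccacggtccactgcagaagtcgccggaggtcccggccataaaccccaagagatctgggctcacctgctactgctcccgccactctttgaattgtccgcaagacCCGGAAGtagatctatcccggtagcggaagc
Mrps18c: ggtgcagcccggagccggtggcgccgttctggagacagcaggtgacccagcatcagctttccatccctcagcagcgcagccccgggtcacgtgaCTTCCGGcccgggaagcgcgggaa

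The site of the respiratory factor NRF1, the capitals in the next lines, was found in 3 of the 67 members with a RefSeq promoter (4.48%), against 1.07% of all 27025 genes and 2.31% of 4550 measured genes with a promoter. Each site is shown with its flanks on the strand of its gene, with the NRF1 letters in capitals. Mrpl9 has its site at chr3:94443298-94443327 (+), Mrpl32 at chr13:14613105-14613134 (-) and Mrpl39 at chr16:84735350-84735379 (-).
Mrpl9: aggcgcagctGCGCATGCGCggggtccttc
Mrpl32: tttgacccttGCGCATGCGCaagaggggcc
Mrpl39: aaggagaggcGCGCATGCGCccccgcgtgg

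In the windows from 250 bases before to 50 after each start, searched on both strands, CCGGAAG was found in 24 of the 67 members (35.8%), against 22.1% of measured genes. A site of the factor YY1, the capitals in the last lines, was found in 5 members (7.46%), against 2.37%. A YY1 match can share bases with an ETS match, and the 2 members that held both had them apart. At least 1 of the 3 motifs stood in 12 of 33 members called higher (36.4%) and in 13 of 23 measured members that were not called (56.5%), against 25.7% of measured genes and 11.3% of all genes. Mrpl32 and Mrpl39, with NRF1 letters, were called higher, whereas Mrpl9 was not. These are matches of letters and not measured binding. For YY1, the site of Mrps11, before its start, is at chr7:78783012-78783041 (+), and that of Mrpl37, just after its start, at chr4:107066820-107066849 (-), with the YY1 letters in capitals on either strand.
Mrps11: cctacgggcGCCGCCATCTTtctgtcttcc
Mrpl37: gcacgggcaAAGATGGCGGCgtccaggtag

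Mitochondrial ribosomal protein genes were higher as a group in the dKO-labelled library. Of the 76 genes, 65 were measured. Of these, 39 (60.0%) were at least 2-fold higher, against 26.2% of all 6001 measured genes, and 0 were at least 2-fold lower, against 4.18%. Their median log2 ratio was 1.17, against 0.51 for all measured genes. The log2 ratio was above 0 for 64 of the 65 (75.4% of all measured genes) and above the median of all measured genes for 59. The counting interval lay wholly above 1 for 58 members (52.5% of all measured genes) and below 1 for 0 (12.1%). Some members called higher had normalised control values under 20 and passed the limit on the mean only through the dKO-labelled library. They were Mrps6, Mrps14, Mrps18b, Mrps24, Mrps26, Mrps31, Mrps33, Mrps35, Mrpl21, Mrpl32, Mrpl38, Mrpl39, Mrpl44, Mrpl47 and Mrpl49. The limit favours their calls, and so raises the count of 39.

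**Figure D1:**
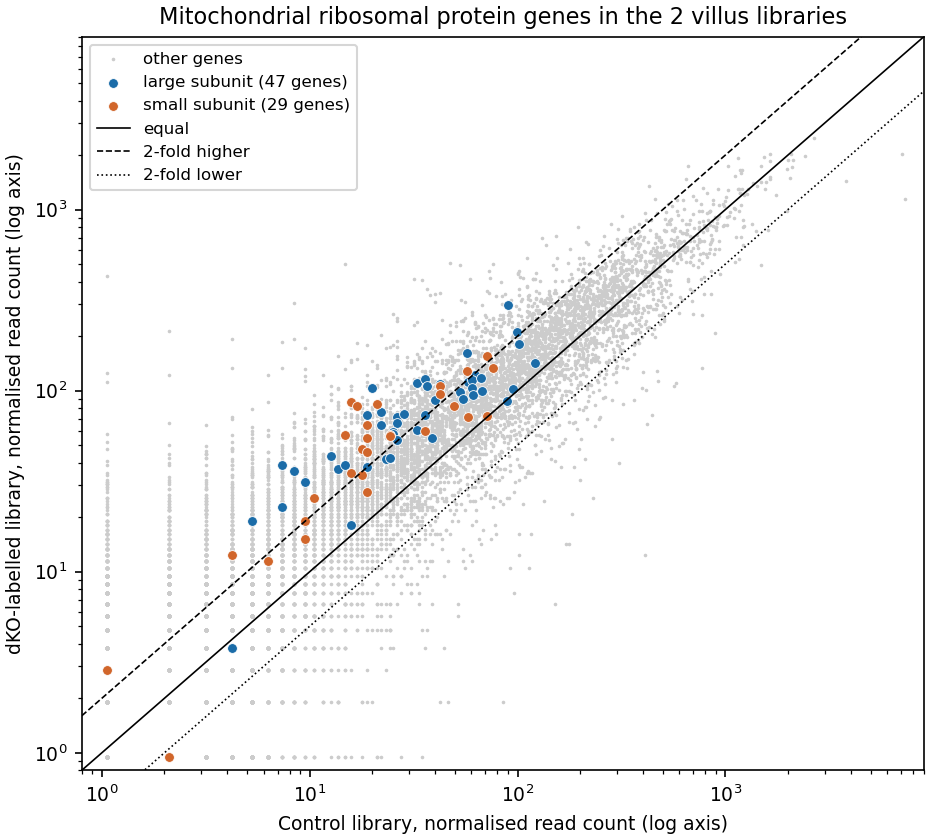
Normalised read count of each gene in the control library (x, log axis) and in the dKO-labelled library (y, log axis), with large subunit genes in blue, small subunit genes in orange and all other genes in grey. Most coloured points lie above the line of equality, and 39 of the 65 measured members are called at least 2-fold higher.

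Since the deposited size factors left most genes above 0, the same counts were read against other scalings. Relative to the median of all measured genes, 15 members were at least 2-fold higher, against 11.8% of measured genes, and 0 were lower, against 10.4%. With TMM scaling 15 of 64 measured members were at least 2-fold higher (11.2% of measured genes) and 0 lower (11.0%). With total counts 26 were higher (16.3%) and 0 lower (7.34%), and with the upper quartile 11 of 62 were higher (8.06%) and 0 lower (15.3%). The median of the members stayed 0.66 to 0.68 above that of all measured genes under these 4 scalings (log2), while the median of all measured genes itself moved by -0.30, -0.71 and -0.53 with total counts, upper quartile and TMM. A quantity that needs no size factor is the share of reads. Members held 2475 reads in the control, or 0.319% (0.307 to 0.332), and 5909 in the dKO-labelled library, or 0.558% (0.544 to 0.573), a share 1.75 times as large (1.67 to 1.84).

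**Figure D2:**
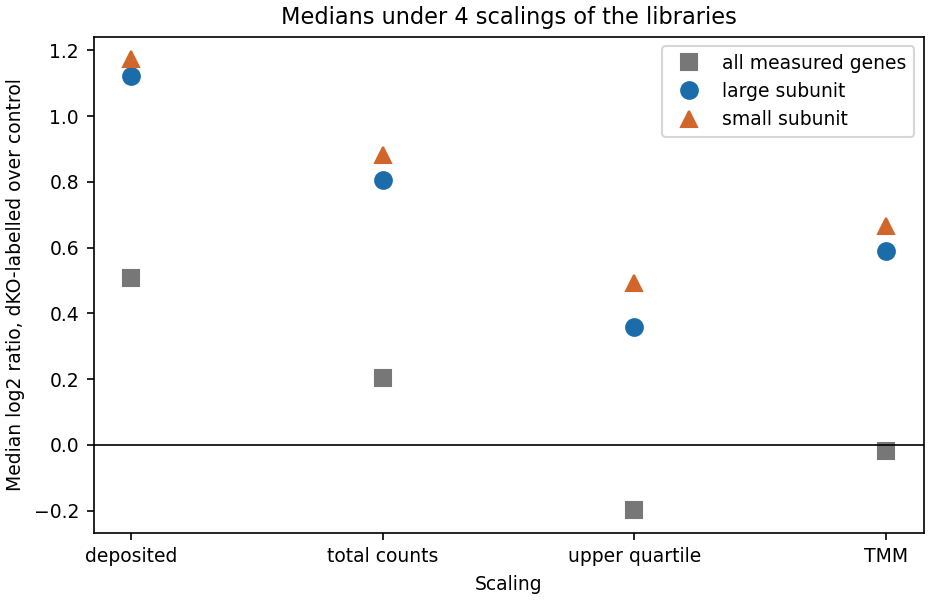
Median log2 ratio (y) of all measured genes (grey squares), large subunit genes (blue circles) and small subunit genes (orange triangles) under the deposited size factors, total counts, the upper quartile and TMM (x). All 3 medians move together with the scaling, and both subunits lie above the grey square in each case.

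Both subunits had similar ratios. Of 43 measured large subunit genes 24 passed 2-fold upward (55.8%), with a median log2 ratio of 1.12. Of 22 small subunit genes 15 did (68.2%), with a median of 1.17. Of all measured genes 26.2% did. Large subunit genes together had 1753 control reads and 4121 dKO-labelled reads, 2.12-fold higher (2.00 to 2.24). Small subunit genes had 722 and 1788, 2.23-fold higher (2.05 to 2.44). Small subunit genes thus made up 29.2% of mitoribosomal reads in the control (27.4 to 31.0) and 30.3% in the dKO-labelled library (29.1 to 31.4). The ratio of small to large subunit reads was 1.05 times as high in the dKO-labelled library (0.949 to 1.17), and no shift between the subunits was detectable at this depth. Mrps18a and Mrps30 carry small subunit names but sit in the large subunit in structures of the mammalian mitoribosome. Counting them there gave medians of 1.10 for the large and 1.18 for the small subunit.

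**Figure D3:**
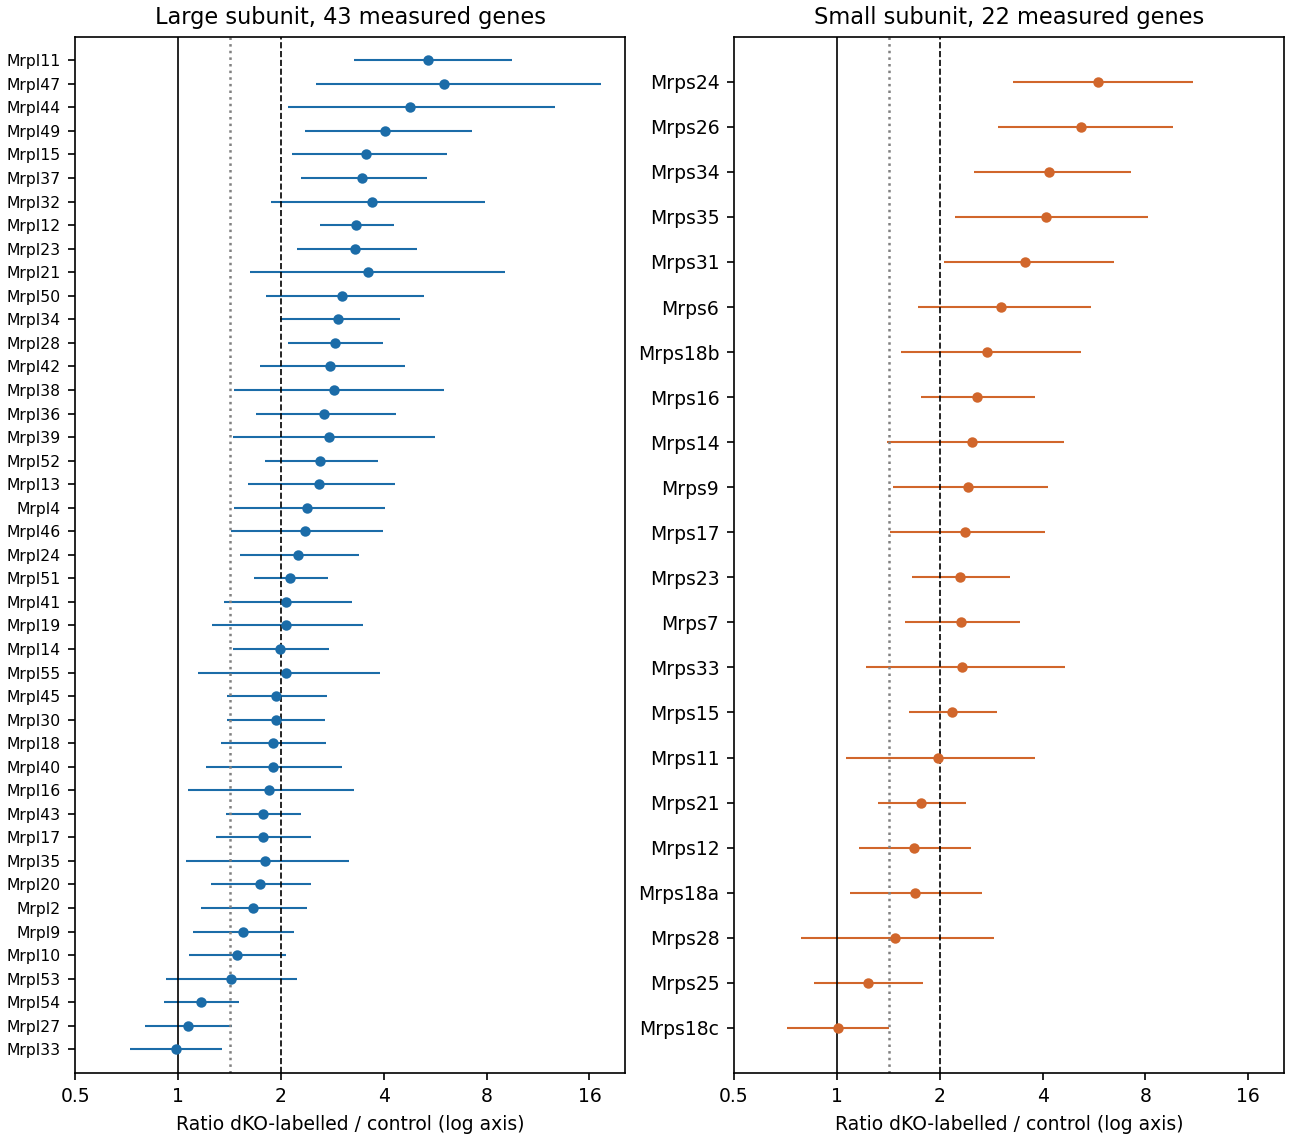
Ratio of dKO-labelled to control reads (x, log axis) for each measured gene of the large subunit (left) and of the small subunit (right), with 95% counting intervals, ordered by log2 ratio. Solid, dashed and dotted lines mark ratios of 1, of 2 and the median of all measured genes, and only the lowest few genes of each panel have intervals that reach 1.

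In the large subunit the highest ratio on the log2 scale belonged to Mrpl11, a protein at the base of the stalk that recruits translation factors. It had 18 control reads and 108 dKO-labelled reads, 5.41-fold higher (3.26 to 9.47). Mrpl47, the counterpart of a bacterial protein beside the exit of the peptide tunnel, had 6 and 40 reads (6.01-fold, 2.53 to 17.3). Mrpl44, which has an RNase III-like fold, had 7 and 37 reads (4.76-fold, 2.10 to 12.7). These genes had few control reads, and their intervals are wide. Mrpl47 and Mrpl44, with normalised control values of 7.37 and 8.43, passed the limit on the mean only through the dKO-labelled library.

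Among the mitochondria-specific proteins of the large subunit, which bacteria lack, Mrpl49 had 17 and 76 reads (4.03-fold, 2.36 to 7.27). Mrpl37, of the same class, had 30 and 115 reads (3.46-fold, 2.30 to 5.35). Mrpl15, which has a bacterial counterpart, had 20 and 79 reads (3.56-fold, 2.16 to 6.14). All 3 were higher beyond counting error, with intervals wholly above 2. Mrpl12, the other stalk protein, combined a high ratio with a high level. It had 84 and 310 reads and was 3.33-fold higher (2.61 to 4.29).

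At the other end of the large subunit, Mrpl33 had 83 control reads and 91 dKO-labelled reads, which gave 0.988 (0.726 to 1.35). Mrpl27, near the peptidyl transferase centre, had 89 and 106 reads (1.07, 0.802 to 1.44). Mrpl54 had 114 and 148 reads (1.17, 0.910 to 1.51). Mrpl53 had 36 and 57 reads (1.43, 0.924 to 2.23). The intervals of these 4 genes hold 1, although 3 of them were among the better covered members. Mrpl10, the third stalk protein, had 63 and 104 reads (1.49, 1.08 to 2.07), and Mrpl9 had 57 and 98 (1.55, 1.11 to 2.19).

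In the small subunit Mrps24, a protein of the head near the path of the incoming messenger RNA, had 14 control reads and 90 dKO-labelled reads, 5.79-fold higher (3.28 to 11.0). Mrps26, a mitochondria-specific protein, had 15 and 86 reads (5.17-fold, 2.97 to 9.63). Mrps34, also mitochondria-specific, had 19 and 88 reads (4.17-fold, 2.52 to 7.26). All 3 had intervals wholly above 2. Mrps35 and Mrps31, both mitochondria-specific proteins of the head, followed with 13 and 59 reads (4.09-fold, 2.22 to 8.13) and with 17 and 67 (3.55-fold, 2.06 to 6.45). Mrps6, with a bacterial counterpart, had 17 and 57 reads (3.02-fold, 1.73 to 5.54).

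The lowest small subunit genes were Mrps18c, with 67 and 75 reads (1.01, 0.716 to 1.42), Mrps25, with 54 and 74 (1.24, 0.858 to 1.79), and Mrps28, with 17 and 28 (1.48, 0.785 to 2.89). Their intervals hold 1. Mrps18c, Mrps18b and Mrps18a are 3 paralogs of a single bacterial protein, of which only Mrps18c was counted among the bacterial counterparts. Mrps18b had 16 and 49 reads (2.76-fold, 1.54 to 5.20), with an antisense gene over its exons, and Mrps18a 33 and 62 (1.69-fold, 1.09 to 2.67). Mrps12, the counterpart of the decoding protein S12 of bacteria, had 46 and 86 reads (1.69-fold, 1.16 to 2.47). Mrps21 had 71 and 139 reads (1.76-fold, 1.32 to 2.38). These last values were below 2-fold, with intervals above 1.

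The members next to the 2-fold limit were Mrpl51 (log2 ratio 1.08) and Mrpl41 (1.01) inside it and Mrpl19 (0.99) and Mrpl14 (0.97) outside it. All members together were 2.15-fold higher (2.05 to 2.26), against 1.23-fold for all genes together. Of the 65 measured members, 48 had a counting interval that covered the members' value of 2.15. The intervals of 11 lay above it, namely Mrps24, Mrpl11, Mrpl47, Mrps26, Mrps34, Mrpl49, Mrps35, Mrpl15, Mrpl37, Mrpl12 and Mrpl23. The intervals of 6 lay below it, namely Mrpl10, Mrps25, Mrpl54, Mrpl27, Mrps18c and Mrpl33. Taken singly, each of these 17 intervals excluded the members' value, which itself includes the reads of the gene. Among 65 separate intervals some would miss a common value by counting error alone. Counting error may therefore account for some of the 17, and which ones cannot be told here. The intervals do not cover the spread between animals.

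Within the large subunit, the pooled ratios of the named regions differed, each resting on few genes. Over all measured genes 26.2% were called higher. The stalk genes Mrpl10, Mrpl11 and Mrpl12 had 165 control reads and 522 dKO-labelled reads (2.85-fold, 2.39 to 3.42), with 2 of 3 called higher. The 5 genes around the tunnel exit, Mrpl22, Mrpl23, Mrpl24, Mrpl45 and Mrpl47, had 136 and 392 reads (2.60-fold, 2.13 to 3.18), with 3 of 4 measured genes called higher. The 6 genes of the central protuberance (Mrpl18, Mrpl27, Mrpl38, Mrpl40, Mrpl46 and Mrpl48) had 206 and 373 (1.63-fold, 1.37 to 1.94), with 2 of 5 called higher. Large subunit genes outside these regions had a ratio of 2.05 (1.92 to 2.19). The stalk was not uniform, since Mrpl10 lay at 1.49-fold and Mrpl11 at 5.41-fold. In the central protuberance, Mrpl27 alone held 89 of the control reads and 106 of the dKO-labelled reads, at 1.07-fold. The other measured genes there lay between 1.89-fold (Mrpl40) and 2.85-fold (Mrpl38). At the tunnel exit, Mrpl22, Mrpl23, Mrpl24 and Mrpl47 share exon bases with other genes or have near-identical copies. Mrpl45, which does not, lay at 1.94-fold (1.39 to 2.73) and was not called.

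In the small subunit, all 7 measured of the 8 genes of the head (Mrps7, Mrps9, Mrps10, Mrps14, Mrps24, Mrps31, Mrps33 and Mrps35) were called higher. Together they had 136 control reads and 460 dKO-labelled reads, 3.05-fold higher (2.51 to 3.72). The 21 other small subunit genes had 586 and 1328 reads (2.04-fold, 1.85 to 2.26), and 8 of 15 measured were called higher. The 2 intervals do not overlap, and they cover counting error only. Median log2 ratios were closer, at 1.22 for the head and 1.10 for the rest. Of the head genes, Mrps14, Mrps24, Mrps31, Mrps33 and Mrps35 had normalised control values under 20. They passed the limit on the mean only through the dKO-labelled library. Over all measured genes 26.2% were called higher.

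Proteins specific to mitochondria and those with a bacterial counterpart were compared across both subunits. Of 25 measured mitochondria-specific genes, 18 were at least 2-fold higher (72.0%), and of 40 genes with a bacterial counterpart, 21 (52.5%). The share of all measured genes was 26.2%. Of the mitochondria-specific genes called higher, Mrps18b, Mrps26, Mrps31, Mrps33, Mrps35, Mrpl38, Mrpl39, Mrpl44 and Mrpl49 had normalised control values under 20. Among those with a bacterial counterpart called higher, Mrps6, Mrps14, Mrps24, Mrpl21, Mrpl32 and Mrpl47 did. All of these passed the limit on the mean only through the dKO-labelled library, so the 2 shares carry that limit unequally. Median log2 ratios of the 2 classes were 1.34 and 1.11. In summed reads the classes were closer, at 2.20-fold (2.04 to 2.38) and 2.12-fold (2.00 to 2.25), and these intervals overlap.

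Levels of different genes were compared as normalised counts per kilobase of transcript. Across the 43 measured large subunit genes the median level was 28.9 (control) and 58.4 (dKO-labelled), and across the 22 small subunit genes 18.6 and 45.2. The most abundant large subunit transcripts by mean were Mrpl54 (201 control and 234 dKO-labelled, per kilobase), Mrpl33 (185 and 183), Mrpl52 (101 and 259) and Mrpl12 (68.0 and 224). In the small subunit they were Mrps21 (187 and 328), Mrps15 (76.4 and 165), Mrps18c (112 and 113) and Mrps12 (68.6 and 114). Mrpl52 and Mrpl12 stood below Mrpl33 in the control and above it in the dKO-labelled library. Across the 65 members the 2 sets of levels had a Spearman rho of 0.94 and a Pearson r of 0.93 on log2 levels between the libraries. These genes share the 2 libraries and the length by which both levels were divided, and are not independent replicates.

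Transcript length moved with the ratio in opposite directions in the members and in all genes. Members were short, with a median of 1219 bases against 2825 for measured genes. Among other measured genes, the median log2 ratio was 0.70 below 1000 bases and 0.31 at 4000 bases and above, whereas among members it was 0.97 in the 23 shortest and 1.36 in the 6 longest. Below 1000 bases 10 of 23 members were at least 2-fold higher, against 30.9% of 469 other genes, and between 1000 and 1500 bases 15 of 21, against 33.1% of 626. The counts were 5 of 8 (30.6% of others) from 1500 to 2500 bases, 6 of 7 (25.8%) from 2500 to 4000 and 3 of 6 (18.3%) from 4000 upward. By level, 22 of 31 members with a mean of 20 to 50 were higher (37.9% of 2088 other genes), 13 of 27 at 50 to 100 (27.1% of 1441) and 4 of 7 at 100 to 200 (18.9% of 1166). Across the 65 members Spearman's rho between log2 ratio and length was 0.32, and between log2 ratio and mean level -0.33.

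The 11 members below the limit on the mean were Mrpl3, Mrpl22, Mrpl1, Mrpl48, Mrps36, Mrps5, Mrps30, Mrps27, Mrps22, Mrps10 and Mrps2. Mrpl3 had 4 and 19 reads and Mrpl22 had 6 and 23. Mrps5 had 9 and 26, and Mrps36, a protein now assigned to the 2-oxoglutarate dehydrogenase complex, had 3 and 12. Mrps30, Mrps27 and Mrps22 had 8 and 19, 8 and 15, and 5 and 11 reads, and Mrpl1 had 14 and 18. Mrpl48 had 3 in each library. Mrps10 had 0 and 2 and Mrps2 had 1 and 0, too few for a ratio. Few reads need not mean a scarce transcript here. The measured cytosolic ribosomal protein genes had a median mean of 392, yet Rpl26 and Rpl22 had 0 reads in both libraries. With the limit removed, 43 of all 76 members were at least 2-fold higher and 0 lower. The counts over all symbols without the limit are given with the alternatives below. Those symbols include genes with 0 reads in both libraries, which cannot reach 2-fold.

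Some members share sequence with other genes. In the GENCODE M21 annotation, 29 of the 76 had at least 100 exon bases in common with another gene or a near-identical copy elsewhere, and their counts are uncertain, since no source used here gives the strand setting of the counting. Among the named genes these include Mrpl47, whose exons meet Actl6a (452 bases) and Ndufb5 (158), Mrpl44 (Wdfy1, 126), Mrps34 (Mapk8ip3, 576), Mrps25 (Nr2c2, 4590) and Mrpl53, which lies within Gm42688. Mrpl12, Mrpl10, Mrpl9, Mrpl33, Mrps18c and Mrps6 also share exon bases with another gene, and Mrpl23, Mrpl27 and Mrps21 have near-identical processed pseudogenes. Of the 40 measured members without such a neighbour or copy, 27 were at least 2-fold higher (67.5%, against 26.2% of all measured genes) and 0 lower. Their median log2 ratio was 1.18.

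In the authors' deposited table, 0 of the 76 members had an unadjusted p-value under 0.05, against 0.558% of all 22040 rows. The lowest was 0.101, for Mrps24. In a design with 1 library per group this count shows neither presence nor absence of a difference.

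The remaining mitoribosomal proteins, which carry other symbols, were higher as well. Of 7 genes, 6 were measured, 5 were at least 2-fold higher and 0 lower, with a median log2 ratio of 1.37. Over all measured genes 26.2% were higher and 4.18% lower, and 6 genes are few to set against that share. Ict1, a peptidyl-tRNA hydrolase built into the large subunit, had 11 and 111 reads (9.10-fold, 4.89 to 18.7). Gadd45gip1, of the large subunit, had 11 and 74 (6.06-fold, 3.20 to 12.7), and Chchd1, of the small subunit, 17 and 54 (2.86-fold, 1.63 to 5.27). Aurkaip1 was the one measured gene not called, with 128 and 162 reads (1.14, 0.899 to 1.45).

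Genes that build and serve the mitoribosome were described by lists. Over all measured genes 26.2% were higher and 4.18% lower. Among other genes with a mean of 20 to 50, 37.9% were higher, and these lists are short. Of 21 assembly and ribosomal RNA modification genes, 7 were measured and 5 were at least 2-fold higher and 0 lower. The largest ratios were those of the RNA methyltransferase gene Nsun4, with 12 and 69 reads (5.18-fold, 2.79 to 10.5), of Malsu1, which keeps the subunits apart during assembly, with 8 and 32, and of the GTPase gene Gtpbp10, with 11 and 35. Of 13 translation factor genes, 6 were measured and 4 were higher and 0 lower. Gfm1, the elongation factor that moves the ribosome along, had 4 and 36 reads (8.11-fold, 2.91 to 31.4), Tsfm, the exchange factor of Tufm, 6 and 36, and the membrane insertase gene Oxa1l 22 and 83 (3.40-fold, 2.10 to 5.72).

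Mitochondrial tRNA synthetase genes charge the tRNAs used by the mitoribosome, and most fell below the limit on the mean. Of 16 such genes 4 were measured, 1 was higher and 0 lower, with a median log2 ratio of 0.59. The shares over all measured genes, for this list and the next, were 26.2% higher and 4.18% lower. With no limit on the mean, 8 of the 16 had a log2 ratio of at least 1 and 1 of -1 or less. Counts over all symbols without the limit are given with the alternatives below. Rars2 had 8 and 34 reads (3.83-fold, 1.74 to 9.58), whereas Hars2 had 14 and 25 and Iars2 15 and 26. Lars2, named after its values were seen, held 706 of the 801 control reads of the list and 698 of 925 in the dKO-labelled library. The whole list had a ratio of 1.04 (0.946 to 1.15), and the 15 genes other than Lars2 had 95 and 227 reads (2.15-fold, 1.69 to 2.77). Among genes that transcribe, process and maintain mitochondrial DNA, 3 of 7 measured were higher (42.9%) and 0 lower (median 1.00). Ptcd2 had 9 and 60 reads (6.01-fold, 2.96 to 13.8), the transcription factor gene Tfb2m 14 and 49, and Hsd17b10, a subunit of mitochondrial RNase P, 15 and 52.

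Genes listed for mitochondrial protein import, chaperones included, had 12 of 18 measured members at least 2-fold higher (66.7%) and 0 lower. Over all measured genes 26.2% were higher and 4.18% lower. The median log2 ratio of the import list was 1.18. The genes called higher included Timm8a1 (15 and 70 reads), the outer membrane receptor gene Tomm70a (38 and 153 reads, 3.63-fold, 2.53 to 5.32) and the matrix chaperonin gene Hspe1 (36 and 121). Of 6 regulators of mitochondrial biogenesis in the table, 3 were measured and 0 were called. Gabpa had 61 and 99 reads (1.46-fold, 1.05 to 2.05), Yy1 142 and 171 (1.09, 0.864 to 1.37) and Esrra 379 and 414 (0.985, 0.854 to 1.13).

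Set beside these, the respiratory chain genes of the nucleus had 29 of 67 measured members at least 2-fold higher (43.3%) and 0 lower, with a median log2 ratio of 0.87. The largest ratios were those of Ndufa10 (30 and 166 reads), Cyc1 (79 and 352) and Uqcrc2 (87 and 333). Cytosolic ribosomal protein genes had 18 of 69 higher (26.1%, near the 26.2% of all measured genes) and 0 lower, with a median of 0.83. Their largest ratios were those of Rpl3 (206 and 678 reads), Rpl22l1 (37 and 117) and Rpl10a (186 and 567). In summed reads all genes together had a ratio of 1.23. The cytosolic set was 1.77-fold higher (1.74 to 1.81) and the respiratory chain 1.79-fold (1.75 to 1.83), against 2.15-fold (2.05 to 2.26) for the mitoribosomal genes. The intervals of the mitoribosomal genes and of either other set do not overlap, and they cover counting error only.

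**Figure D4:**
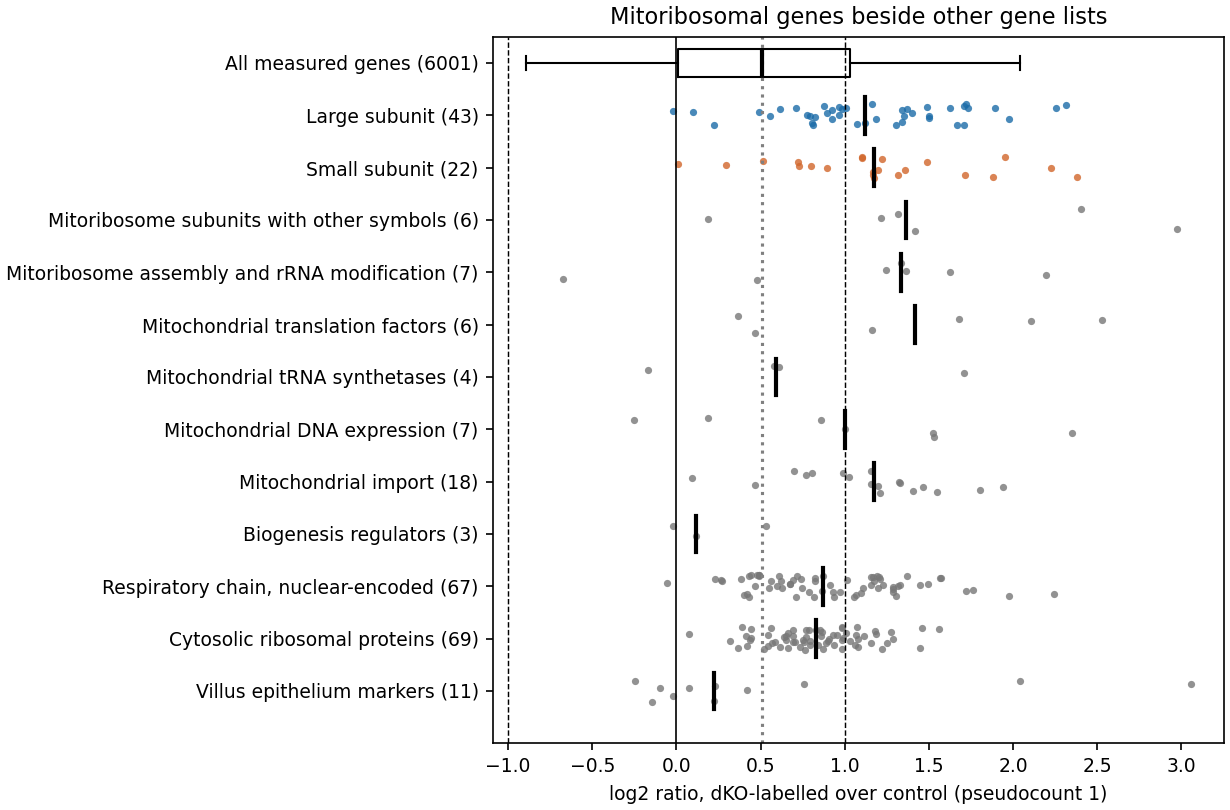
Log2 ratio of each measured gene (x, dKO-labelled over control, pseudocount 1) by list (y, number of measured genes in parentheses), with black bars at the list medians. The box for all measured genes spans the quartiles and its whiskers the 5th to 95th percentiles, the dotted line marks their median of 0.51, and the medians of both mitoribosomal subunits lie near 1.1 to 1.2.

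Markers of other cell types differed between the libraries too. The 5 fibroblast genes in the table had 22 control reads and 186 dKO-labelled reads (7.62-fold, 4.89 to 12.5), with 3 of 3 measured genes higher, and Dcn at 0 in both. The 5 smooth muscle genes had 37 and 180 reads (4.39-fold, 3.06 to 6.43), with 3 of 3 higher and Myh11 at 0 and 1. The 5 immune genes had 51 and 82 reads, with Ptprc at 0 in both, and the 3 endothelial genes 4 and 15. The 6 crypt and proliferation genes had 105 and 213 reads (1.83-fold, 1.44 to 2.33). Most of these were reads of Pcna, with 83 and 124 (1.35-fold, 1.01 to 1.80). The others were Mki67 (12 and 32), Mcm2 (5 and 17), Top2a (3 and 17), Lgr5 (2 and 10) and Olfm4 (0 and 13). Epithelial markers had 11933 and 15007 reads (1.13-fold, 1.11 to 1.16), below the 1.23-fold of all genes together. Of the 11, 2 were called higher (18.2%, against 26.2% of all measured genes), Sis (37 and 357) and Lct (184 and 847). Counting intervals lay above 1 for 6 of them and below 1 for 3. Those 3 were Cdh1 (0.844, 0.775 to 0.920), Apoa1 (0.906, 0.844 to 0.973) and Apoa4 (0.933, 0.883 to 0.986). The part of these cell types in the mitoribosomal ratios was not tested.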

How the data were processed

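RNA was extracted with a column kit and the TruSeq kit, version 2, was used for the libraries, per the labels' protocols. TopHat, DESeq and the mm9 build are named in the submitters' processing notes, with no versions. For the counting tool, strand and duplicates, the setting is not given in the sources used here. Per the file headers, the 2 signal columns hold DESeq base means, that is normalised counts, deposited for 22040 transcripts. All values were whole multiples of their column minimum (1.0533 and 0.9494), within 0.001 of a step in 100% of rows, and none was 0. Reads were recovered as steps minus 1, an inference from the values. The deposited fold (ratio) and log2 columns are the quotient of the signal columns, and the deposited p-values are unadjusted, per the file headers.

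Symbols turned into dates (33) were resolved by accession with a RefSeq table (GRCm38.p6). The size rule at 2-fold, the mean limit of 20 and the pseudocount of 1 are given above, and a fold is reported only above a floor of 3 reads. Transcript lengths and exon overlaps came from GENCODE M21, of another build than mm9, and near-identical copies (at least 95% identity over 50% of the transcript) from BLAST 2.17.0. RefSeq promoters were found for 67 of 76 members.

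Named genes were the 6 highest and 6 lowest log2 ratios and the 4 highest levels per subunit, members under the mean limit, those next to 2-fold, and up to 3 genes of each other list with the largest absolute log2 ratio. Genes named beyond these were chosen after their values were seen. The members and lists were chosen with earlier results of these data known. TMM and upper-quartile factors came from edgeR 4.0.16 in R 4.3.3. All else used Python 3.11.15 (scipy 1.17.1, numpy 2.4.6, pandas 2.3.3; figures in matplotlib 3.10.9), tested on simulated data. Alternatives were other scalings, a pseudocount of 5, other mean limits, an interval rule, removal of the added read, summed rows, another subunit assignment and a length-range comparison.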

Additional observations from a re-analysis of the deposited data

How the results depend on the processing

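No replicate could be left out with 1 library per genotype. No paired analysis was possible because the 2 libraries are single samples of their groups. No called value changed sign under the alternatives run, and the count of members at least 2-fold lower was 0 under each. Members at least 2-fold higher numbered 39, and 11 with the upper quartile, 15 with TMM, 15 with the median of measured genes set to 0 and 17 with a mean of at least 50, where 34 members were measured. Beside that last count, 27.1% of 1441 other genes with a mean of 50 to 100 were higher, and 18.9% of 1166 at 100 to 200. All measured genes at least 2-fold higher and lower numbered 1574 and 251. Under total counts they were 972 and 437, under the upper quartile 477 and 904, under TMM 664 and 653, and relative to the median 711 and 626. With no filter they were 3704 and 892 of all 20722 symbols. They were 761 and 164 with a mean of at least 50, and 3148 and 729 with the counting interval beyond 1.

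Median log2 ratios of the members, of the large and of the small subunit were 0.87, 0.80 and 0.88 with total counts. Under the upper quartile they were 0.46, 0.36 and 0.49, under TMM 0.66, 0.59 and 0.67, relative to the median 0.66, 0.62 and 0.67, and 0.64, 0.60 and 0.63 relative to genes of the same length range. The members' median was 1.06 with a pseudocount of 5. With a mean of at least 50 it was 0.99, and that of the large subunit was 0.95. The scalings shift every ratio by construction, and the higher mean limit leaves fewer genes. The difference between the subunits' medians (-0.05) ranged from -0.19 to -0.01 over the alternatives run. Taking out members with overlapping genes or near-identical copies was chosen after seeing the data, and gave medians of 1.18, 1.18 and 1.19. Depth limits single genes: Mrpl41, near 2-fold with 33 and 76 reads, has an interval of 1.36 to 3.23.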

Other observations

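Several mitoribosomal genes share a promoter region with a neighbour that is read in the opposite direction. In the GENCODE M21 annotation, 17 members had a protein-coding neighbour on the other strand whose start lay within 1000 bases and pointed away. Both genes were measured in 6 of these pairs. Of these 6 members 3 were at least 2-fold higher and their median log2 ratio was 0.94. Of the 6 partners 0 were higher and 1 was lower, with a median of 0.15. Over all measured genes 26.2% were higher and 4.18% lower, so 6 pairs are few to set against that share. Some partners below the limit on the mean had more dKO-labelled than control reads, among them Ncapd2 (1 and 14), Cyb5rl (3 and 10) and Fau (2 and 9).

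Mrpl32 (11 control reads and 45 dKO-labelled reads) stood beside the proteasome gene Psma2 (129 and 216), and Mrps18b (16 and 49) beside Ppp1r10 (39 and 44), which encodes a regulator of protein phosphatase 1. Mrpl41 (33 and 76) had Pnpla7, a lysophospholipase gene, as its partner at 935 bases, with 104 and 36 reads. Mrpl54 (114 and 148) and its partner Apba3 (130 and 142) both lay close to equal. Mrps27 (8 and 15) shares its region with Ptcd2 (9 and 60), which is itself a gene of mitochondrial RNA processing, and Mrps12 (46 and 86) with the synthetase gene Sars2 (6 and 19). These pairs were picked by position, after earlier results of these data were known, and the difference within pairs was not tested.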
